A study of Danio rerio with 24 samples.

Results

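The 150 genes described here were expressed in zebrafish embryos at 12 h post-fertilization (hpf) and had lost most of their transcript level by 24 hpf. They were chosen on the measured values of vitamin E (VitE) sufficient (E+) embryos: among 6609 genes with a mean of 10 or more CPM (counts scaled to a common library size) in the E+ pools at 12 hpf, the 150 with the lowest ratio of the 24 hpf mean to the 12 hpf mean were kept, with 0.5 CPM added to each mean. The whole table held 29109 genes with at least 1 read. Because the E+ pools at 12 and 24 hpf made the choice, their values are given as a description with no test. The pools of VitE deficient (E-) embryos at all 3 ages and the E+ pools at 18 hpf took no part in the choice.

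The study asked how VitE deficiency changes gene expression in early zebrafish development. Adults of the Tropical 5D strain were fed an E- or an E+ diet and spawned in groups, and whole embryos judged morphologically normal were staged by landmarks at 12, 18 and 24 hpf. Each of the 6 groups, E+ and E- at each age, held 4 samples, each a pool of 10 whole embryos, with 2 pools sequenced on lane 7 and 2 on lane 8. The labels name the parents' diet and the age as what set the groups apart, with no mutation or transgene, and embryos of all groups were euthanized with tricaine. Pooling averages over embryos, group spawning leaves the parents of a pool unknown, and nothing in the sources tells apart spawnings within a group, so the p-values below measure the spread between these pools. A whole-embryo level is a share of all messenger RNA, and fewer cells of a type, less RNA per cell and more RNA from other tissues cannot be told apart.

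Between gastrulation and mid-segmentation a zebrafish embryo stops using several programs that laid out its body. The dorsal organiser and its opposing ventral signals set the axis through bone morphogenetic protein (BMP), Nodal and Wnt ligands and their secreted inhibitors, the tailbud feeds unsegmented (presomitic) mesoderm into the somites under T-box and Cdx transcription factors, and the eye field is specified at the front of the neural plate. Messages left by the mother in the egg are cleared during early development.

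The pools held from 10537272 to 20973407 reads assigned to genes, and the members were well covered, with at least 1476 reads over the 24 pools and a median of 5952.5. The most abundant gene of a pool took 33.8% to 39.2% of its gene reads at 12 hpf and 25.1% to 28.1% at 24 hpf. The labelled ages were checked on 9 matched genes of blood, muscle, pigment, lens and myelin, whose summed level was 35.8 to 95.3 CPM in the 12 hpf pools, 1068 to 1486 at 18 hpf and 4800 to 6729 at 24 hpf, with no overlap between ages. Within that list the lens gene CRYAA stayed below 1 CPM in every group mean and the myelin gene mbpa stayed between 2.01 and 2.71. Ovary and egg genes summed to 37.9 to 56.9 CPM at 12 hpf and to 12.3 to 15.9 at 24 hpf. That sum includes zp3a.1, a member chosen for its fall, at means of 16.6 and 1.47 CPM in E+ pools, so part of the drop was set by the choice. In the same list bmp15, at 1.955 and 2.287 CPM, and figla, at 0.066 and 0.127, did not fall in E+ means. At 12 hpf E- replicate 3 was the highest pool: its member transcripts summed to 17058 CPM against 11374 to 12720 in the other E- pools and 11871 to 13833 in the E+ pools. Its age genes, at 87.3 CPM, were above the other E- pools, at 35.8 to 55.6, and inside the E+ range of 41.3 to 95.3.

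Together the members dropped from 12649 CPM at 12 hpf to 3409.8 at 18 hpf and 1606.4 at 24 hpf in E+ embryos, as sums of group means, and from 13459 to 3310.2 and 1625.6 in E- embryos. In E+ embryos the fall from 12 to 24 hpf had a median of 2.55 on the log2(CPM + 0.5) scale, where 1 unit is a 2-fold drop, and it ran from 1.96 to 5.91. In that group 49 members fell at least 8-fold, 14 fell at least 16-fold, and 15 ended below a mean of 1 CPM. The added 0.5 CPM understates the fall of those that ended near 0. The heat map by pool shows the members' levels dropping at both steps in E+ and E- pools alike.

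**Figure D1:**
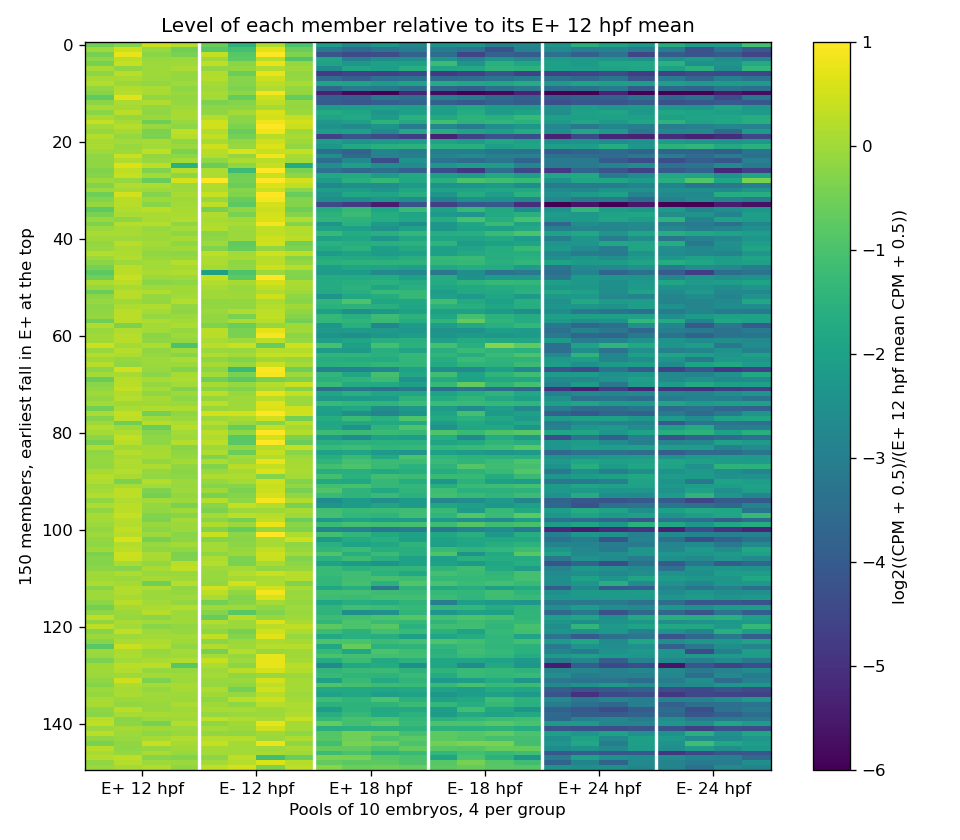
Level of each of the 150 members (rows, earliest fall in E+ at the top) in each of the 24 pools (columns, 4 per group), as log2 of CPM + 0.5 over the E+ mean at 12 hpf + 0.5. Colours darken from the 12 hpf pools to the 18 and 24 hpf pools for both diets, and E- replicate 3 at 12 hpf is the brightest column.

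The edge of the choice was gradual. The last 3 members were STARD3NL, wnk4b and si:dkey-52d15.3, with log2 falls of 1.961, 1.960 and 1.957, and the first 3 genes left out were diabloa, zgc:123295 and tep1, with 1.948, 1.948 and 1.946.

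E- embryos followed. With edgeR's quasi-likelihood test on the counts and a Benjamini-Hochberg false discovery rate (FDR) under 0.1, all 150 members were lower at 24 than at 12 hpf in E- pools, where 18.6% of all genes tested were lower, and 52.9% of the 6609 genes that met the level minimum. The members' fitted log2 fold change had a median of -2.84 and ran from -7.33 to -1.20, with a largest FDR of 2.5e-06, against a median of 0 over all genes and -0.32 over the 6609. All 150 also passed without E- replicate 3 at 12 hpf. In 148 members the 4 E- pools at 24 hpf all lay below the 4 at 12 hpf, as they did in 42.4% of the 6609 genes. The size of the fall was also close: the change in E- minus the change in E+ had a median of -0.06 log2 units and ran from -0.73 to 0.92, and 133 members differed by less than 0.5. When the same rule was applied to the E- pools, 124 of its 150 genes were members, 82.7% of each list. Of the 26 members not shared, DUSP2, insb and si:zfos-905g2.1 were under 10 CPM in E- pools at 12 hpf, and 22 of the others ranked from 151 to 272 by fall. The remaining member, neff1, ranked 651.

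**Figure D2:**
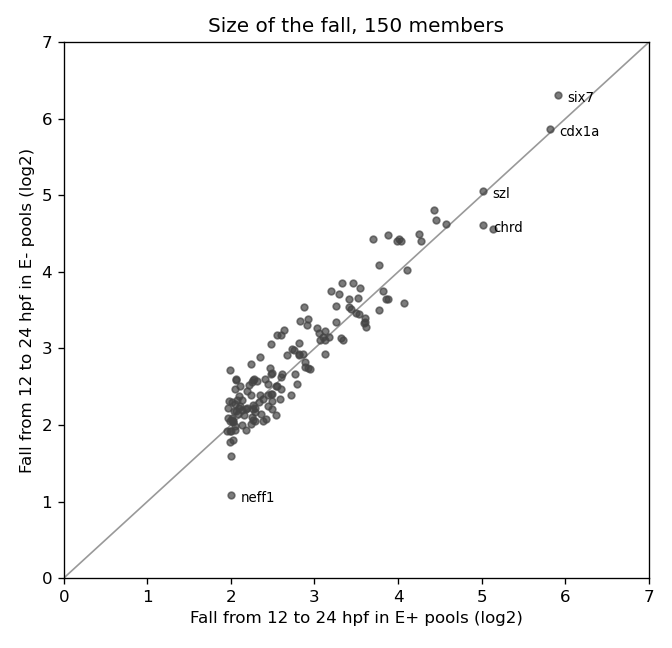
Size of the fall from 12 to 24 hpf in log2 units for each of the 150 members (points), in E+ pools on the x axis and E- pools on the y axis, with the line of equal falls. The points lie near the line from about the limit of the rule up to six7 at 5.91 and 6.31, and neff1, at 2.00 and 1.08, lies farthest below it.

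Most of the loss came early. In E+ embryos a median of 63.9% of a member's log2 fall was reached by 18 hpf (quartiles 53.8% and 74.8%), and in E- embryos 66.2% (56.2% and 75.8%). The median drop was 1.66 log2 units from 12 to 18 hpf and 0.89 from 18 to 24 hpf in E+ pools, and 1.80 and 0.86 in E- pools. Much the same share was seen elsewhere, as 495 other genes of 10 or more CPM that fell by at least 1 log2 unit in E+ had a median of 63.1% in E+ and 63.6% in E-. In the E- pools all 150 members were lower at 18 than at 12 hpf by edgeR's test at FDR under 0.1, where 13.9% of all genes and 42.8% of the 6609 were, with a median fitted change of -1.93 and a largest FDR of 0.00013, and in 148 members the 4 pools did not overlap, against 32.3% of the 6609. From 18 to 24 hpf 118 members were lower still, where 6.63% of all genes and 22.4% of the 6609 were, 31 did not pass and 1, neff1, was higher, where 7.05% of all genes were. The 4 pools at 24 hpf all lay below those at 18 hpf in 104 members, against 23.8% of the 6609 genes.

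**Figure D3:**
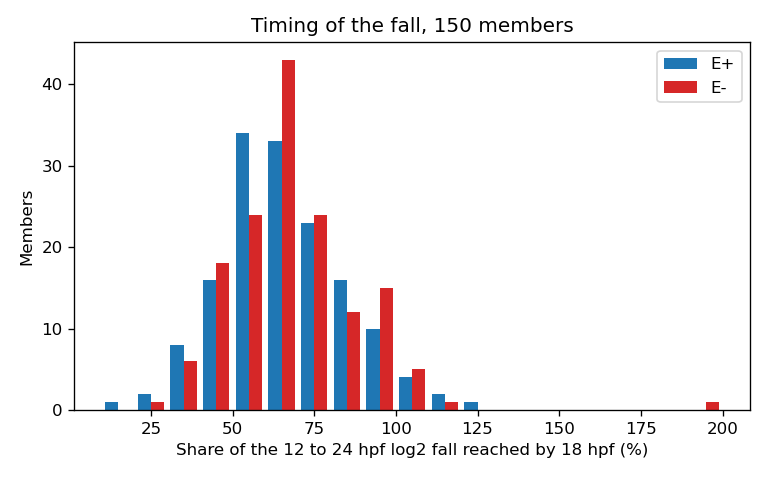
Number of members (y axis) by the share of the 12 to 24 hpf log2 fall already reached at 18 hpf, in percent (x axis), for E+ (blue) and E- (red) pools. Both distributions peak between about 50 and 75%, and the single E- member at 190.5% is neff1.

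Genes of the tailbud and presomitic mesoderm made up 15 of the members, with a median of 47.0% of the fall by 18 hpf in E+ and 48.5% in E-, over a range in E+ from 34.6% to 79.6%. The group was formed after the members were seen, and its timing was not tested against that of other members. All 15 were lower at 24 than at 18 hpf in E- pools by edgeR's test, as were 118 of the 150 members. Over the 6609 genes 22.4% were lower, and over all genes 6.63%. cdx1a and cdx4 encode Cdx homeodomain factors that act upstream of posterior Hox genes. cdx1a was at 58.6, 75.5, 53.4 and 64.1 CPM in the 4 E+ pools at 12 hpf, at 2.52, 1.81, 0.950 and 2.96 at 18 hpf, then at 0.410, 0.789, 0.456 and 0.850 at 24 hpf. In the E- pools cdx1a was at 77.7, 36.9, 90.6 and 50.6 CPM at 12 hpf, 2.05, 3.24, 3.39 and 1.43 at 18 hpf, then 0.527, 0.212, 0.932 and 0.741 at 24 hpf. Every pool at 12 hpf was above every pool at 18 hpf and every pool at 18 hpf above every pool at 24 hpf, for both diets, and the E- change from 12 to 24 hpf was -6.81 ± 0.25 (SE) on the log2 scale, with an edgeR FDR of 6.1e-50. The share of the fall reached by 18 hpf was 79.6% in E+ and 75.2% in E- for cdx1a, above the median of all members, and 43.8% and 46.4% for cdx4. cdx4 went from 291 ± 18.8 CPM (SD, n = 4) to 12.8 ± 2.99 in E+ and from 298 ± 32.4 to 11.2 ± 1.19 in E- pools.

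msgn1, a basic helix-loop-helix factor that drives tailbud progenitors into presomitic mesoderm, kept a high level at 18 hpf. It was at 541, 576, 560.4 and 546 CPM in E+ pools at 12 hpf, 184, 193, 196 and 201 at 18 hpf, then 29.3, 28.9, 26.8 and 29.8 at 24 hpf. The E- pools gave 571, 533, 764 and 579 CPM at 12 hpf, 196, 192, 199 and 175 at 18 hpf, then 28.8, 21.5, 28.9 and 27.0 at 24 hpf. The 3 ages did not overlap in either diet and the E- fall from 18 to 24 hpf, -2.83 ± 0.10 (SE), was larger than that from 12 to 18 hpf, -1.75 ± 0.09 (SE) (edgeR FDR 1.5e-50 and 4e-35), although the difference between the steps was not tested. tbx16, the T-box gene mutated in spadetail, was at 139.9, 154, 133 and 149 CPM in the E+ pools at 12 hpf, 42.0, 42.4, 39.4 and 41.8 at 18 hpf, then 9.29, 7.29, 8.20 and 9.56 at 24 hpf. In E- pools it was at 160.1, 104, 201 and 148 CPM at 12 hpf, 36.6, 32.9, 43.0 and 39.6 at 18 hpf, then 6.59, 6.21, 7.79 and 6.39 at 24 hpf. Again no age overlapped with the next, and the fitted E- change from 12 to 24 hpf was -4.56 ± 0.14 (SE) (edgeR FDR 1.7e-59).

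The other T-box members of this tissue were tbx6, with log2 falls of 3.26 in E+ and 3.56 in E-, and tbx16l, with 3.46 and 3.86. Among the members were her7, an oscillating Hairy-related repressor of the segmentation clock, which fell by 3.89 and 3.64, and her11, which fell by 3.60 and 3.35. Other genes of a wider segmentation clock and presomitic mesoderm list rose. From 12 to 24 hpf in E- pools her12, her15.1, her15.2 and DLD were higher by 0.50, 0.66, 0.75 and 0.96 (edgeR FDR of 0.0036 or less). Under the symbol HES6, ENSDARG00000007097 changed by 1.94, the largest rise in the list, and ENSDARG00000019335 by -1.71 (edgeR FDR 1.8e-07 and 2.3e-31). Of the 40 matched genes in that list 29 were lower and 5 higher, and its 12 members were all among the lower. ripply1, which limits T-box activity where somites form, fell by 2.07 and 2.32 log2 units. pcdh8, a protocadherin of the presomitic mesoderm, fell by 2.87 and 2.93, and the myogenic factor MYF5 by 3.05 and 3.202. The latest of the group were HOXB7, the ligand gene fgf17 and msgn1, which had reached 34.6%, 34.7% and 35.8% of the fall by 18 hpf in E+ pools.

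Organiser, BMP, Nodal and Wnt signalling genes numbered 16, with median falls of 3.42 log2 units in E+ and 3.52 in E-, of which 65.9% and 69.6% came by 18 hpf. chrd, the secreted BMP inhibitor Chordin, was at 115, 159.5, 127 and 99.9 CPM in E+ pools at 12 hpf, 11.2, 12.7, 11.4 and 14.4 at 18 hpf, then 3.69, 2.55, 4.40 and 2.90 at 24 hpf. The E- pools held 106, 97.3, 134 and 103 CPM at 12 hpf, 11.2, 12.8, 10.9 and 9.72 at 18 hpf, then 3.60, 3.53, 4.32 and 4.63 at 24 hpf. The ages were fully separated in both diets, and the E- change over the 12 h was -4.83 ± 0.15 (SE) (edgeR FDR 1.7e-57). szl, the Sizzled protein that blocks the proteases which cleave Chordin, was at 22.3, 17.9, 14.9 and 22.9 CPM at 12 hpf, 0.316, 0.641, 0.439 and 0.264 at 18 hpf, then 0, 0.425, 0.0506 and 0 at 24 hpf in E+ pools. In E- pools it was at 24.8, 14.1, 23.1 and 20.6 CPM at 12 hpf, 0, 0.337, 0.599 and 0.499 at 18 hpf, then 0.0879, 0, 0.0847 and 0.371 at 24 hpf. szl had no read in 3 of the 8 pools at 24 hpf, and its 18 and 24 hpf pools overlapped in both diets.

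GSC, the organiser homeobox gene goosecoid, was at 8.06, 18.8, 9.35 and 8.31 CPM in E+ pools at 12 hpf, 0.158, 0.0534, 0.0731 and 0.330 at 18 hpf, then 0.615, 0.303, 0.658 and 0 at 24 hpf. E- pools were at 14.4, 6.05, 26.1 and 8.63 CPM at 12 hpf, 0.543, 0, 0.333 and 0.249 at 18 hpf, then 0.264, 0.141, 0.254 and 0 at 24 hpf. All 8 pools at 12 hpf were above 6 CPM and all 16 later pools below 1 CPM, with 18 and 24 hpf overlapping. The E- change from 12 to 18 hpf was -5.61 ± 0.41 (SE) (edgeR FDR 3.9e-24), and that from 18 to 24 hpf, -0.75 ± 0.72 (SE), did not pass (FDR 0.61). The secreted Wnt antagonist frzb was also early, with 96.0% of its fall by 18 hpf in E+ and 91.4% in E-.

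Ventral and ligand genes were in the list beside the dorsal ones. vox and vent, homeodomain repressors of organiser genes on the ventral side, fell by 4.01 and 2.49 log2 units in E+ and by 4.43 and 2.31 in E-. The BMP ligand gene bmp7a fell by 3.03 and 3.27, and admp, a BMP-like ligand made by the organiser, by 3.88 and 4.48. pnhd fell by 4.27 and 4.40. On the Nodal side were gdf3, the ligand that pairs with Nodal proteins (2.104 and 2.51), and lft1, a Lefty-type Nodal inhibitor (2.29 and 2.17). noto, the notochord homeobox gene, fell by 2.80 and 2.53, and apela, a peptide hormone that guides mesendoderm movement, by 2.24 and 2.79. In the protein-coding gene order of RefSeq (assembly GRCz12tu), where 116 members could be placed by symbol, 3 pairs of members were direct neighbours: vent with vox, admp with pnhd, and the egg coat genes zp3a.2 with zp3a.1.

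The 9 transcription factors of pluripotent, endodermal and ectodermal cells had a median fall of 2.24 in E+ and 2.32 in E-. pou5f3, the zebrafish relative of mammalian Oct4, averaged 24.4 ± 6.51 CPM at 12 hpf and 3.97 ± 1.23 at 24 hpf in E+ pools (SD, n = 4), and 35.8 ± 29.3 and 3.86 ± 0.558 in E- pools, where replicate 3 alone reached 78.5 CPM at 12 hpf. SALL4, a zinc finger partner of the pluripotency network in mammals, was still at 99.6 ± 2.71 CPM at 24 hpf in E+ after 473 ± 17.7 at 12 hpf. GATA5 and GATA6, endoderm and heart regulators, fell by 2.01 and 2.03 in E+ and by 2.299 and 2.04 in E-. GATA3, a factor of the ventral ectoderm, fell by 2.49 and 2.40, and it had reached 88.2% and 87.2% of the fall by 18 hpf.

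The 4 factors of the eye field, forebrain and hindbrain held both the largest fall and the latest one in E+ pools. six7, a Six-family homeobox gene active in the early eye field and later in photoreceptors, was at 75.2, 110.0, 98.5 and 88.7 CPM in E+ pools at 12 hpf, 1.89, 1.12, 0.292 and 1.98 at 18 hpf, then 0.956, 0.668, 1.82 and 0.779 at 24 hpf. E- pools were at 98.5, 81.4, 172 and 84.7 CPM at 12 hpf, 1.21, 0.675, 1.13 and 1.87 at 18 hpf, then 0.527, 0.282, 1.52 and 1.21 at 24 hpf. No 12 hpf pool was below 75 CPM and no later pool above 2 CPM, and the E- change from 12 to 18 hpf was -6.53 ± 0.22 (SE) (edgeR FDR 7.4e-54), with no change passing from 18 to 24 hpf (FDR 0.43). rx3, the homeobox gene required to form the eye, was at 58.0, 57.7, 53.0 and 50.7 CPM at 12 hpf, 4.18, 3.203, 4.61 and 4.81 at 18 hpf, then 4.65, 3.88, 5.21 and 2.55 at 24 hpf in E+ pools. Its E- values were 62.9, 45.3, 74.1 and 50.9 CPM at 12 hpf, 4.22, 4.38, 5.06 and 6.29 at 18 hpf, then 5.98, 3.81, 6.52 and 5.00 at 24 hpf. Like six7 it had finished falling by 18 hpf, and its 18 and 24 hpf pools overlapped in both diets.

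EGR2, listed under the symbol of the human gene for the Krox20 factor of hindbrain rhombomeres, had the latest fall in E+ pools. It was at 22.1, 24.3, 26.4 and 20.8 CPM in E+ pools at 12 hpf, 19.5, 15.6, 16.2 and 14.9 at 18 hpf, then 3.96, 3.70, 3.69 and 2.98 at 24 hpf. In E- pools the values were 29.8, 34.1, 17.7 and 29.2 CPM at 12 hpf, 13.6, 14.6, 13.1 and 12.8 at 18 hpf, then 2.81, 1.70, 3.13 and 2.78 at 24 hpf. Only 19.0% of the E+ fall and 31.5% of the E- fall came before 18 hpf, and the E- change from 18 to 24 hpf was -2.38 ± 0.19 (SE) (edgeR FDR 4.8e-21). At 18 hpf all 4 E- pools of EGR2 lay below the 4 E+ pools, with a fitted log2 difference of -0.29 ± 0.16 (SE) that did not pass the test (edgeR FDR 0.64).

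**Figure D4:**
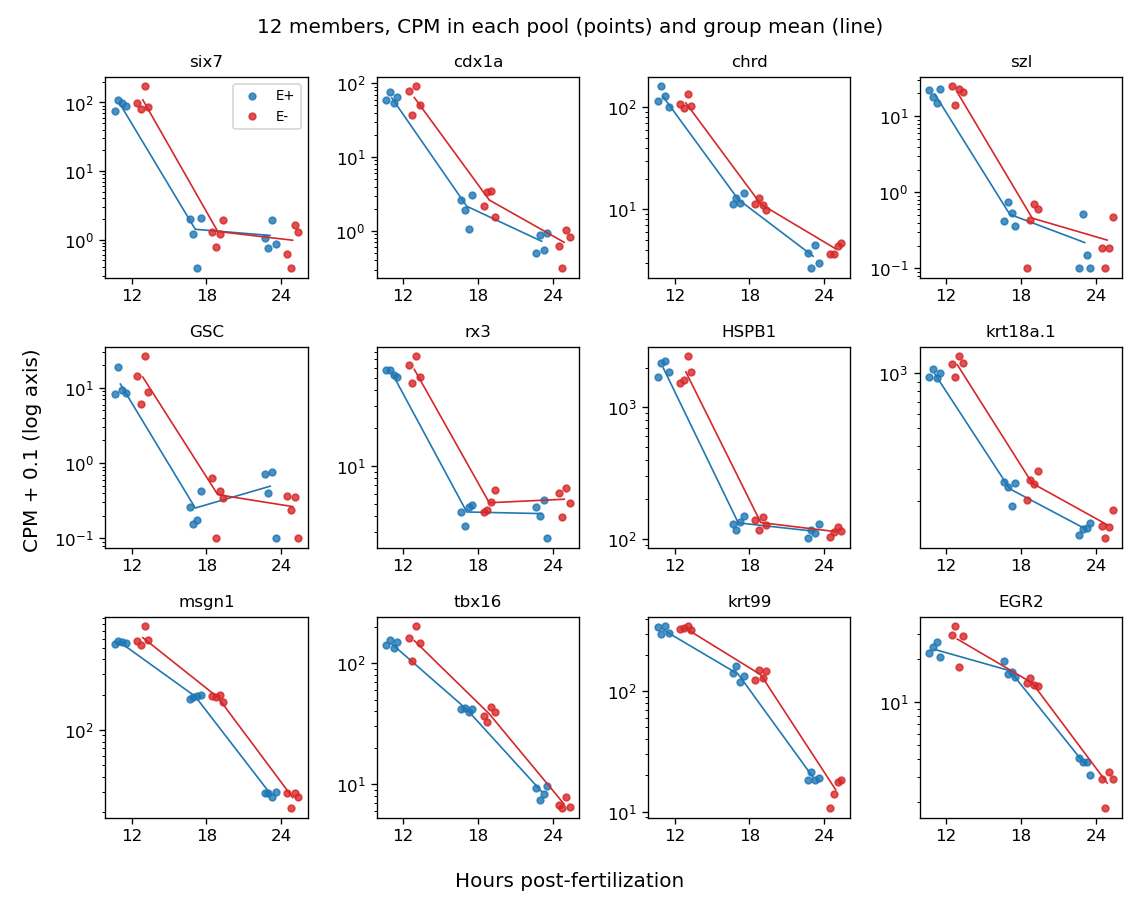
CPM + 0.1 in each pool (points, log axis, a different range in each panel) against age in hpf for 12 members, with lines through the group means, E+ in blue and E- in red, set slightly apart for clarity. six7, GSC, rx3 and HSPB1 had reached their low level by 18 hpf, while msgn1, tbx16, krt99 and EGR2 kept falling to 24 hpf.

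HSPB1, a small heat shock protein gene and the member with the highest CPM at 12 hpf, went from 1698, 2162, 2249 and 1844 CPM in E+ pools to 129.8, 116, 133 and 150.2 at 18 hpf, then 101, 116, 111 and 130.1 at 24 hpf. In E- pools it was at 1536, 1620, 2440 and 1843 CPM at 12 hpf, 139, 117, 147 and 128 at 18 hpf, then 102, 112, 124 and 115 at 24 hpf. It had completed 94.9% of the E+ fall and 94.3% of the E- fall by 18 hpf, and its 18 and 24 hpf pools overlapped in both diets. A second abundant early member, si:ch211-152c2.3, behaved alike, with means of 412 ± 63.7, 16.5 ± 1.37 and 16.9 ± 1.97 CPM (SD, n = 4) at the 3 ages in E+ pools.

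Epithelial genes were 5. krt18a.1, a type I keratin, was at 961, 1062, 941 and 1006 CPM in E+ pools at 12 hpf, 254, 237, 188 and 249 at 18 hpf, then 129.6, 140.2, 141 and 151 at 24 hpf. Its E- pools were at 1128, 956, 1241 and 1139 CPM at 12 hpf, 201, 259, 246 and 289.6 at 18 hpf, then 145, 124, 143 and 178 at 24 hpf. The fitted E- change from 12 to 24 hpf was -2.98 ± 0.10 (SE) (edgeR FDR 1.6e-54), with no overlap between ages. krt99, another keratin, was at 340.1, 296, 345 and 306 CPM at 12 hpf, 140.4, 161, 119 and 133 at 18 hpf, then 18.2, 21.1, 18.3 and 18.8 at 24 hpf in E+ pools. In E- pools krt99 was at 326, 334, 344 and 320.1 CPM at 12 hpf, 124, 149, 129 and 146 at 18 hpf, then 10.6, 13.8, 17.7 and 18.4 at 24 hpf. It was among the latest to fall, with 30.1% of the E+ fall and 28.8% of the E- fall by 18 hpf. Skin keratins as a list differed among themselves: of 21 matched genes of the skin and enveloping layer list, 13 were lower and 8 higher at 24 than at 12 hpf in E- pools by edgeR's test, and krt18a.1 was the list's single member among the 150.

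Matrix and adhesion genes were 7, with median falls of 2.32 in E+ and 2.51 in E-. Both fibronectin genes, listed under the 1 symbol FN1 and told apart by ID, fell by like amounts but, by the shares reached at 18 hpf, at different times, a difference that was not tested. ENSDARG00000019815 was at 137 ± 3.61, 31.9 ± 4.74 and 23.0 ± 2.53 CPM (SD, n = 4) in E+ pools at 12, 18 and 24 hpf, with 81.9% of its fall by 18 hpf. ENSDARG00000006526 was at 141 ± 20.1, 82.6 ± 8.91 and 25.5 ± 4.01 CPM, with 31.5% by 18 hpf. The E- pools kept that order, with 75.5% and 32.7%. alcamb, an immunoglobulin-family adhesion molecule, fell by 2.32 and 2.57 log2 units, and the laminin chain gene LAMA1 by 2.06 and 2.59.

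Egg genes were 5: the egg coat (zona pellucida) genes zp2.3, zp3a.1, zp3a.2 and zp3.2, and npm2b, an egg nucleoplasmin. Their falls ran from 2.35 to 3.13 log2 units in E+, and all 5 were lower at 24 than at 18 hpf in E- pools by edgeR's test. In that contrast 118 of the 150 members were lower, with 22.4% of the 6609 genes and 6.63% of all genes. Reads of the near-identical zp genes may fit several copies, as may those of the znfl1 members (znfl1h, znfl1b) and of the histone gene hist2h3ca1. Such reads may have been left out as lying on no single gene, so the level of each copy and the split between copies are uncertain. Cathepsin proteases were 3. CTSC fell from 453 ± 47.2 to 63.9 ± 3.98 CPM (SD, n = 4) in E+ pools and from 538 ± 89.8 to 63.9 ± 10.5 in E- pools.

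Metabolic genes numbered 13, with median falls of 2.43 in E+ and 2.67 in E-. pck2, the mitochondrial phosphoenolpyruvate carboxykinase, fell from 212 ± 19.3 to 31.0 ± 2.74 CPM (SD, n = 4) in E+ pools. uox, the urate oxidase of purine breakdown, was late, with 24.7% of its E+ fall by 18 hpf, and urahb, which acts in the same breakdown, fell by 4.43 and 4.81 log2 units. CERS2, a ceramide synthase, fell by 2.40 and 2.60, and MTTP, which loads lipid onto lipoproteins, by 2.01 and 2.06. Retinoic acid handling was represented by CYP26A1, which degrades retinoic acid (2.48 and 2.66), and CRABP2, which binds it inside cells (2.09 and 2.15). The 71 members given no group here had median falls of 2.48 in E+ and 2.50 in E-. Their E+ falls ran from 1.96 up to 5.13, the last being si:ch211-165f21.6. By edgeR's test 52 of them were lower at 24 than at 18 hpf in E- pools, as were 118 of all 150 members. The share lower was 22.4% over the 6609 genes and 6.63% over all genes.

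A few members were lowest at 18 hpf and not at 24 hpf. In 7 of the E+ group the mean at 18 hpf was below that at 24 hpf, led by neff1 at 122% and followed by alox5b.3, a lipoxygenase-family gene, at 112% and GSC at 112%. The GSC means there were only 0.153 and 0.394 CPM. In E- pools 7 members were also over 100%, but alox5b.3 and GSC were not, at 92.5% and 94.7%. neff1 was at 14.7, 17.5, 29.1 and 24.5 CPM in E+ pools at 12 hpf, 4.73, 2.78, 3.95 and 2.64 at 18 hpf, then 3.76, 6.98, 5.16 and 4.04 at 24 hpf. In E- pools it was at 14.3, 7.45, 23.6 and 10.6 CPM at 12 hpf, 3.44, 3.58, 2.33 and 2.62 at 18 hpf, then 6.42, 4.59, 4.74 and 9.73 at 24 hpf. All 4 E- pools at 24 hpf lay above all 4 at 18 hpf, and the rise of 1.09 ± 0.24 (SE) passed edgeR's test (FDR 0.00043). In the E+ pools the same 2 ages overlapped.

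Few of these genes were called different by VitE status at 18 hpf, the only age at which this was tested. A member that did not pass was not shown to be unchanged. At 18 hpf, an age that played no part in the choice, edgeR's test at FDR under 0.1 called 4 of the 150 members lower in E- pools, where 0.196% of all genes and 0.575% of the 6609 were, and 1 higher, where 0.412% and 0.953% were. The other 145 did not pass, 21 members had an unadjusted p under 0.05 (11 lower and 10 higher), and the median fitted difference was -0.02 log2 units in the members and in the 6609 genes alike.

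ctsll, a cathepsin L-like protease gene, was at 107, 125, 120.3 and 143 CPM in the E+ pools and 48.6, 94.2, 82.3 and 77.1 in the E- pools at 18 hpf. No E- pool reached the lowest E+ pool, and the difference was -0.72 ± 0.11 (SE) log2 units (edgeR FDR 1.8e-05), with -0.70 between the lane 7 means and -0.72 between the lane 8 means. The same gene was at 42.7, 42.8, 46.1 and 37.7 CPM in E+ and 35.0, 22.4, 23.1 and 20.3 in E- pools at 24 hpf, again with no overlap, and at 336, 478, 403 and 357 in E+ and 283, 327, 407 and 364 in E- pools at 12 hpf, with overlap. emilin3a, an elastin microfibril interface gene, was at 14.3, 14.1, 10.3 and 9.16 CPM in E+ and 4.71, 9.38, 6.52 and 3.43 in E- pools at 18 hpf. Its highest E- pool lay just above the lowest E+ pool, and the difference was -1.002 ± 0.22 (SE) (edgeR FDR 0.006), with -0.96 and -0.90 within the lanes and FDRs of 0.11 without 18 hpf E- replicate 4 and 0.13 after filterByExpr, edgeR's filter on low counts. By 18 hpf emilin3a had gone through 25.6% of its fall in E+ and 47.1% in E- pools.

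Smaller differences passed near the limit for 2 members. eppk1, the cytolinker epiplakin, was at 88.3, 109, 82.5 and 94.4 CPM in E+ and 62.4, 80.1, 69.5 and 80.7 in E- pools, a difference of -0.36 ± 0.10 (SE) (edgeR FDR 0.098). stm, the otolith matrix protein gene starmaker, was at 138, 131, 130.2 and 127 CPM in E+ and 100.4, 114, 108 and 85.0 in E- pools, a difference of -0.37 ± 0.10 (SE) (FDR 0.085). The pools did not overlap for either gene, and within lanes the log2 differences were -0.46 and -0.23 for eppk1 and -0.33 and -0.41 for stm. The eppk1 call was lost without 18 hpf E+ replicate 2 or 4 and without 18 hpf E- replicate 1, 3 or 4. It was also lost without 24 hpf E+ replicate 3, a pool outside the 18 hpf contrast but in the same fit. The eppk1 FDRs without these pools ran from 0.10 to 0.59. The stm call was lost, with FDRs up to 0.48, without 18 hpf E+ replicate 1, 2 or 3, without 18 hpf E- replicate 1 or 4, and without 24 hpf E+ replicate 3. With DESeq2 the FDRs were 0.18 and 0.22, and after filterByExpr 0.23 and 0.25. Of 29 alternatives, eppk1 lost its call in 9, not all of them named here, and stm in 8.

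ponzr5, a plac8 onzin-related gene, went the other way. It was at 10.7, 7.58, 6.29 and 8.37 CPM in E+ and 12.0, 21.7, 9.85 and 11.1 in E- pools at 18 hpf, a difference of 0.73 ± 0.17 (SE) (edgeR FDR 0.017) with a slight overlap between the groups. Without 18 hpf E- replicate 2, the highest pool, the difference was 0.41 with an FDR of 0.49, and without E+ replicate 3 it was 0.62 with an FDR of 0.13. With DESeq2 the FDR was 0.27 and after filterByExpr 0.20. The gene was also higher in E- at the other ages, without overlap, at 51.0, 60.3, 34.1 and 42.1 against 68.2, 67.0, 99.9 and 66.1 CPM at 12 hpf and 2.87, 2.31, 3.09 and 2.83 against 5.01, 3.53, 4.83 and 8.80 at 24 hpf, which are descriptions because the E+ pools there chose the members.

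**Figure D5:**
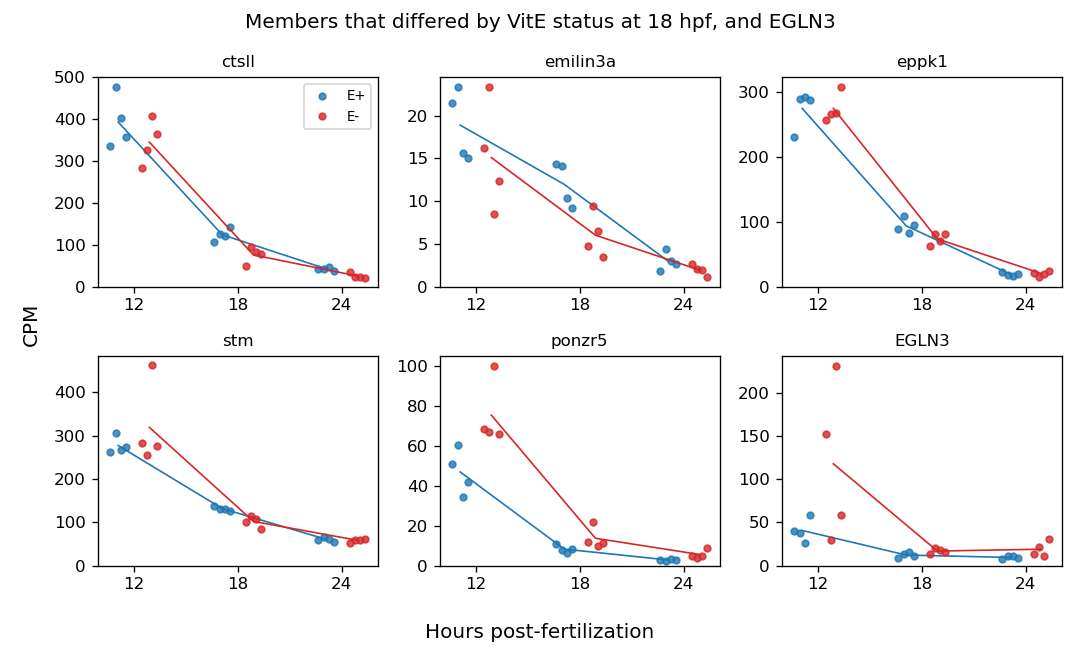
CPM in each pool (points) against age in hpf, with lines through the group means, E+ in blue and E- in red, for the 5 members called different by VitE status at 18 hpf and for EGLN3. At 18 hpf the E- points of ctsll, eppk1 and stm lie below all E+ points, and at 12 hpf E- replicates 1 and 3 of EGLN3 lie far above the rest.

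Counted by pools alone, the E- pools at 18 hpf lay entirely above the E+ pools for 3 members and entirely below for 6, as they did for 3.89% and 5.17% of the 6609 genes. The 3 higher were si:dkey-229d11.3, npm2b and GFUS, and the 6 lower were ctsll, eppk1, stm, EGR2, zp2.3 and arhgap28. At 12 hpf ponzr5 was higher without overlap (2.44% of the 6609 genes), and at 24 hpf 4 were higher, ponzr5, ARL6IP5, c7b and GATA3, and 3 lower, ctsll, grin2da and si:dkey-92i17.2 (1.88% and 3.34%). As at 12 and 24 hpf the E+ pools had made the choice, nothing is read from these counts. EGLN3, a prolyl hydroxylase that acts on hypoxia-inducible factor and was picked here after its values were seen, was spread widely among E- pools, at 153, 29.4, 232 and 58.4 CPM at 12 hpf against 40.2, 37.7, 26.4 and 58.5 in E+ pools. Its E- pools ranged from below the E+ median to far above it, so the groups overlapped. At 18 hpf EGLN3 was at 13.2, 19.8, 17.9 and 16.3 CPM in E- and 8.76, 12.9, 15.7 and 11.3 in E+ pools. At 24 hpf it was at 13.1, 21.6, 10.59 and 30.6 CPM in E- and 7.24, 10.75, 10.73 and 8.71 in E+ pools. Most E- pools were higher at these ages, but the groups overlapped at both.

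Wider lists of the same programs were counted in the E- pools from 12 to 24 hpf, a contrast without E+ pools. In the nodal and mesendoderm list 23 of 26 matched genes were lower, 1 higher and 2 not called, with a median fitted log2 change of -2.49. The dorsal and ventral patterning list had 18 of 23 lower, 1 higher and 4 not called (median -2.59), and the segmentation clock and presomitic mesoderm list 29 of 40 lower, 5 higher and 6 not called (median -1.67). Of 29 genes for blastula and pluripotency factors 24 were lower, 1 higher and 4 not called (median -1.19). The list for gastrula movement, prechordal plate and hatching gland had 15 of 21 lower, 1 higher and 5 not called (-0.98), and that for the neural plate and its borders 16 of 22 lower, 5 higher and 1 not called (-0.79). Maternal and germ plasm genes were lower in 23 of 40 cases, higher in 3 and not called in 14 (-0.73), and the linker histone and cell cycle list in 16 of 28, with 1 higher and 11 not called (-0.44). The skin keratin list had a median of -0.58. Over all genes tested 18.6% were lower and 18.9% higher, with a median of 0. Over the 6609 genes that met the level minimum, 52.9% were lower and 19.2% higher, with a median of -0.32. The level minimum was met by 21 of the 28 cell cycle genes and 18 of the 21 keratin genes, and their shares lower lay near that 52.9%. Only 12 of the 40 maternal genes met it, and 14 of the 26 nodal, 14 of the 23 dorsal and ventral and 25 of the 40 segmentation genes. Neither share is a like yardstick for these 4 lists. The lists overlap in genes and include 12, 10, 9, 7, 5, 3, 2, 1 and 0 members in the order segmentation, dorsal and ventral, nodal, blastula, gastrula, neural, maternal, keratin and cell cycle. All 150 members were lower in this contrast, so those in a list add to its lower count and pull its median down. The list counts are thus in part a restatement of the members' fall, and counts without the members are not given.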

How the data were processed

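RNA of 24 pools of 10 embryos was sequenced from the 3′ end (Lexogen QuantSeq FWD kit), in 6 groups of 4 taken from the labels. The authors checked reads with FastQC 0.11.5, trimmed adapters and poly(A) with bbduk, and aligned to GRCz11 with STAR 2.7.3a. The deposited values are raw counts per Ensembl gene and pool. The strand setting is not given in the sources used here, so antisense overlaps cannot be told apart.

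From the counts, CPM were computed on library sizes scaled by the trimmed mean of M-values (TMM). Between 39.1% and 47.5% of a pool's reads lay on no single gene and were left out. Counting precision is limited by 10537272 to 20973407 gene reads per pool. Tests used edgeR 4.0.16 (R 4.3.3, limma 3.58.1) quasi-likelihood F-tests with TMMwsp scaling, as in the study's methods, in 1 fit of all 24 pools and 29109 genes with at least 1 read, with Benjamini-Hochberg FDR under 0.1 over all genes. The fit was tested on simulated data. Alternatives were TMM, filterByExpr, DESeq2 1.42.0, a lane term, a replicate block, FDR under 0.05, other rule settings and leaving out each pool. Figures used matplotlib 3.10.9.

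Members and lists were chosen with earlier results of these data known, and role groups were formed after the members were seen. Genes named were drawn from those with the 15 largest falls, the 8 highest at 12 hpf and the 8 earliest and 8 latest. Others came from those called at 18 hpf, those next to the limit, members of the lists and examples of role groups. Not every gene of these sets is named. Symbols come from a gene ID table, which named 149 of the 150. No sequences are shown.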

Additional observations from a re-analysis of the deposited data

Results flagged for a closer look

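The 4 pools of each group were compared for the genes whose pool values are printed and for 2 pool summaries, 126 groups in all, and in 7 the highest or lowest pool stood apart by a gap that took up most of the group's range. Chance flags about 1 in 20 groups, so about 6.3 would be marked among 126. No explanation was tested for any of them.

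GSC was at 18.8 CPM in the second E+ pool at 12 hpf, above the other 3, with a gap of 0.880 of the range. eppk1 was lowest in the first E+ pool at 12 hpf, at 230.2 CPM, with a gap of 0.913. E- replicate 3 at 12 hpf was highest for stm, at 463.1 CPM, with a gap of 0.870, and for ponzr5, at 99.9 CPM, with a gap of 0.938, and the same pool had the highest sum over the members. In the E- pools at 18 hpf the first was lowest for the members' summed level, 3113.2 CPM with a gap of 0.897, and for their median log2 level relative to E+ at 12 hpf, -1.80 with a gap of 0.866. szl was at 0.425 CPM in the second E+ pool at 24 hpf, above the other 3, with a gap of 0.881.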

How the results depend on the processing

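All 150 members were lower at 24 and at 18 than at 12 hpf in E- pools under each of 32 alternatives, and the number lower from 18 to 24 hpf ran from 111 to 122. The calls between diets at 18 hpf were less stable. Against 1 member higher and 4 lower in edgeR's test as reported (10 and 11 at an unadjusted p under 0.05), filterByExpr gave 0 and 1 and DESeq2 0 and 2, and at FDR under 0.05 2 were lower. A lane term gave 2 higher, as did a rule minimum of 20 CPM. Replicate numbers did not pair the pools (60 same-number pairs, r from -0.101 to 0.103), and the replicate block gave 2 higher and 5 lower. Leaving out single pools gave 0 to 1 higher and 1 to 5 lower, with 1 lower without 18 hpf E- replicate 4. ctsll passed in 29 of 29 alternatives, emilin3a in 27, ponzr5 in 25, stm in 21 and eppk1 in 20. The median share of the fall by 18 hpf was 67.5% in E+ and 68.5% in E- with 2 CPM added in place of 0.5, and without single pools it ran from 62.8% to 65.7% and from 64.3% to 67.5%, the lowest E- value being without E- replicate 3 at 12 hpf. Other settings of the rule kept 96 of the 150 members at a minimum of 20 CPM, 138 with 2 CPM added and 139 to 147 without a single E+ pool, and 121 to 126 were shared with the E- list. Depth limits szl and GSC, which had pools without a read at 24 hpf.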
